A study of Homo sapiens with 6 samples.

Results

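BCL2 proteins decide at the outer membrane of mitochondria whether a cell starts apoptosis. BAX and BAK1 are the effectors: once activated they form pores, through which cytochrome c reaches the cytosol and starts the caspases. BCL2, BCL2L1 (BCL-XL), BCL2L2 (BCL-W) and MCL1 are survival proteins that hold the effectors in check, and BH3-only proteins such as BCL2L11 (BIM) bind and neutralise them. BOK is an effector that resembles BAX and BAK1 but is controlled largely through its own degradation. The mRNAs of these 4 survival genes and 3 effectors, chosen by their symbols, are described here. They are 7 of the 23228 genes in the count tables, and all 7 were among the 13408 genes with enough counts to be tested.

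The RNA came from HEC-1-A, an established human endometrial adenocarcinoma line grown in McCoy's 5A medium with serum. SMIP34 is a small molecule that binds PELP1, a scaffold protein for nuclear receptors and for ribosome assembly, and the comparison asks what it changes in the transcripts of these cells. The groups were 3 control libraries, for which the labels name the medium and the study names vehicle, and 3 libraries of cells that had received SMIP34 at 20 µM for 24 h. Reads had been counted on the exons of each gene of hg19, with between 19562711 and 22014835 counts per library. The labels do not say that the 3 libraries of a group were separate cultures, so p-values measure the spread between these libraries, which may be technical.

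At a false discovery rate of 0.05, SMIP34-treated cells had less BCL2L1, BAX and BOK mRNA and more MCL1 mRNA than control cells, and BAK1, BCL2L2 and BCL2 did not pass the test. All changes were small, between a decrease of 12.2% (BOK) and an increase of 8.22% (MCL1) among those that passed. None of the 7 genes reached an absolute log2 fold change of 0.5, the limit that the study used and that 3.31% of all genes tested passed together with the adjusted p-value. With 4 of 7 genes called, the share has to be read against all genes tested, of which 34.6% were called at this adjusted p-value. The quasi-likelihood test of edgeR with Benjamini-Hochberg adjustment over all 13408 genes was used throughout. CPM are counts scaled to the size of the library after TMM normalisation. SE is the standard error of a log2 fold change.

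The levels of the 7 genes were compared per kb of exon. On this scale, BCL2L1 was the most abundant in control cells, at 153 ± 0.411 CPM per kb (SD, n = 3). BAX followed at 81.9 ± 1.58 CPM per kb, MCL1 at 34.3 ± 0.846, BAK1 at 23.8 ± 0.201, BCL2L2 at 15.9 ± 0.813 and BOK at 12.2 ± 0.851 CPM per kb. BCL2, the founding member of the family, came last at 0.394 ± 0.110 CPM per kb, with BOK 30.9 times above it. The same order held in the SMIP34 libraries, and in neither group did the libraries of any member overlap those of the next in the order. Of the survival genes, BCL2L1 and MCL1 had the highest levels and made up 47.6% and 10.7% of the summed level per kb of the 7 genes in control cells and 45.8% and 12.2% with SMIP34. BAX took 25.5% in control and 25.0% in treated cells. In a bulk sample, fewer cells with a transcript and less of it per cell cannot be told apart.

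**Figure D1:**
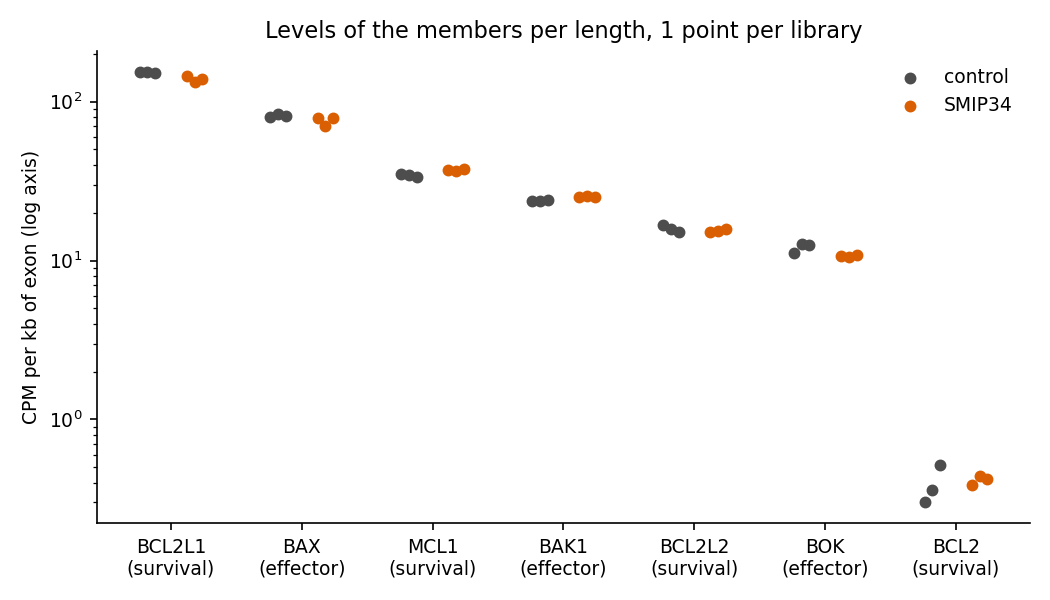
Level of the 7 genes in CPM per kb of exon (log axis), with 1 point for each of the 3 control and 3 SMIP34 libraries, ordered by the control mean. BCL2L1 lies at 152 to 153 CPM per kb in control libraries and BCL2 below 1, and the order is the same in both groups.

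BCL2L1 encodes BCL-XL, which binds both BAX and BAK1. The gene lies on chromosome 20 of hg19, from 30252261 to 30310656 on the minus strand. Its level was 392, 391 and 390.0 CPM in control replicates 1, 2 and 3 and 370.2, 342 and 356 CPM in SMIP34 replicates 1, 2 and 3. Every treated library was below every control library, and the 3 controls differed by less than their treated counterparts (SD 1.05 against 14.3 CPM). The controls also differed by less than their counting error of 1.12%, and the difference in spread was not tested. The log2 fold change was -0.14 (SE 0.029, edgeR adjusted p = 0.000591), a decrease of 8.97%. Of the 7 genes, this was the only one called in all 20 alternative analyses, with log2 fold changes from -0.16 to -0.11. Gene counts do not separate the long survival isoform of BCL2L1 from its short, death-promoting one.

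MCL1 encodes a short-lived survival protein that restrains BAK1 in particular. It lies on chromosome 1 of hg19, from 150547027 to 150552214. The control libraries were at 143, 141 and 136 CPM and the SMIP34 libraries at 151, 150.4 and 153 CPM, so that the groups did not overlap. The log2 fold change was 0.11 (SE 0.032, edgeR adjusted p = 0.00611). MCL1 and BCL2L1, the survival genes with the highest levels, changed in opposite directions. Over all genes tested, 17.4% were called higher and 17.2% lower, and 12.2% and 18.1% with offsets for exon length and GC content together. When offsets took out the dependence of each library on exon length, the call of MCL1 was lost (log2 fold change 0.072, adjusted p = 0.0773).

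BCL2L2 encodes BCL-W, a close relative of BCL-XL, on chromosome 14 of hg19 from 23775971 to 23780968. It was at 61.5, 57.8 and 55.6 CPM in control and at 55.6, 56.1 and 58.0 CPM in treated libraries, with overlapping groups. The log2 fold change was -0.041, with a 95% interval from -0.13 to 0.050 and an edgeR adjusted p of 0.515. Of its exons, 661 bases (18.1%) also belong to BCL2L2-PABPN1, a readthrough transcript into the neighbouring PABPN1. Counts of BCL2L2 were whole numbers in all but 1 library, so reads in the shared exons had not been split between the genes and stand in both. The exons of BCL2L2-PABPN1 lie wholly within those of BCL2L2 (31.0%) and PABPN1 (69.0%), so its counts do not measure the readthrough apart from these genes. Its log2 fold change was 0.087 (adjusted p = 0.0343), and that of PABPN1 was 0.086 (adjusted p = 0.0365).

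BCL2, on chromosome 18 of hg19 from 60790579 to 60986613, was covered by 39, 52 and 71 counts in control and 56, 63 and 60 counts in SMIP34 replicates. On the scaled level these were 2.01, 2.39 and 3.42 CPM for control and 2.55, 2.91 and 2.77 CPM for SMIP34. The treated libraries lay within the range of the controls. The log2 fold change was 0.070, with a 95% interval from -0.33 to 0.47 (edgeR adjusted p = 0.820). At this depth a change of BCL2 of the size measured for the other 6 genes was not detectable. Control replicate 3 set much of the estimate: without it the log2 fold change was 0.31 (adjusted p = 0.278), and without control replicate 1 it was -0.074.

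BAX, the effector that moves from the cytosol to mitochondria when activated, lies on chromosome 19 of hg19 from 49458117 to 49465055. The control libraries were at 101, 105 and 102 CPM and the SMIP34 libraries at 98.9, 88.8 and 98.7 CPM. The groups did not overlap, and SMIP34 replicate 2 was the lowest library. The log2 fold change was -0.11 (SE 0.040, edgeR adjusted p = 0.0341). Without SMIP34 replicate 2 it was -0.059 (adjusted p = 0.296), and without control replicate 2 it was -0.092 (adjusted p = 0.134). With gene length offsets it was -0.052 (adjusted p = 0.306), and BAX has the shortest exon length of the 7 genes, 1256 bases. In all, the call held in 11 of the 20 alternatives, and the direction in 20.

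BAK1 encodes the effector that resides in the mitochondrial membrane, on chromosome 6 of hg19 from 33540323 to 33548070. Its level was 52.1, 51.8 and 52.7 CPM in control and 54.9, 55.7 and 54.9 CPM in SMIP34 libraries, each treated library above each control. The replicates of both groups differed by less than their counting error of 2.96%. The log2 fold change of 0.080 (SE 0.042, 95% interval from -0.0064 to 0.17) did not pass the test (edgeR adjusted p = 0.147). It passed in 1 alternative, with length and GC content offsets together (0.12, adjusted p = 0.0307).

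BOK lies on chromosome 2 of hg19 from 242498192 to 242513553. The control libraries were at 29.1, 33.3 and 32.4 CPM and the SMIP34 libraries at 27.9, 27.4 and 28.2 CPM. The groups did not overlap, and control replicate 1 was closer to the treated libraries than to the other controls. With a log2 fold change of -0.19 (SE 0.059, edgeR adjusted p = 0.0143), BOK had the largest change of the 7 genes by its estimate. The call was lost without control replicate 2 (-0.15, adjusted p = 0.0961) and without SMIP34 replicate 2 (-0.18, adjusted p = 0.0530). Among all genes tested, those whose log2 CPM over the 6 libraries correlated most with BOK were PRAF2, MFHAS1 and AGXT2L2, each with a Pearson r of 0.995. Groups that do not overlap were found for 5 of the 7 genes, against 44.5% of all genes tested. SMIP34 lay above control for MCL1 and BAK1 (22.6% of all genes) and below it for BCL2L1, BAX and BOK (21.9%).

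**Figure D2:**
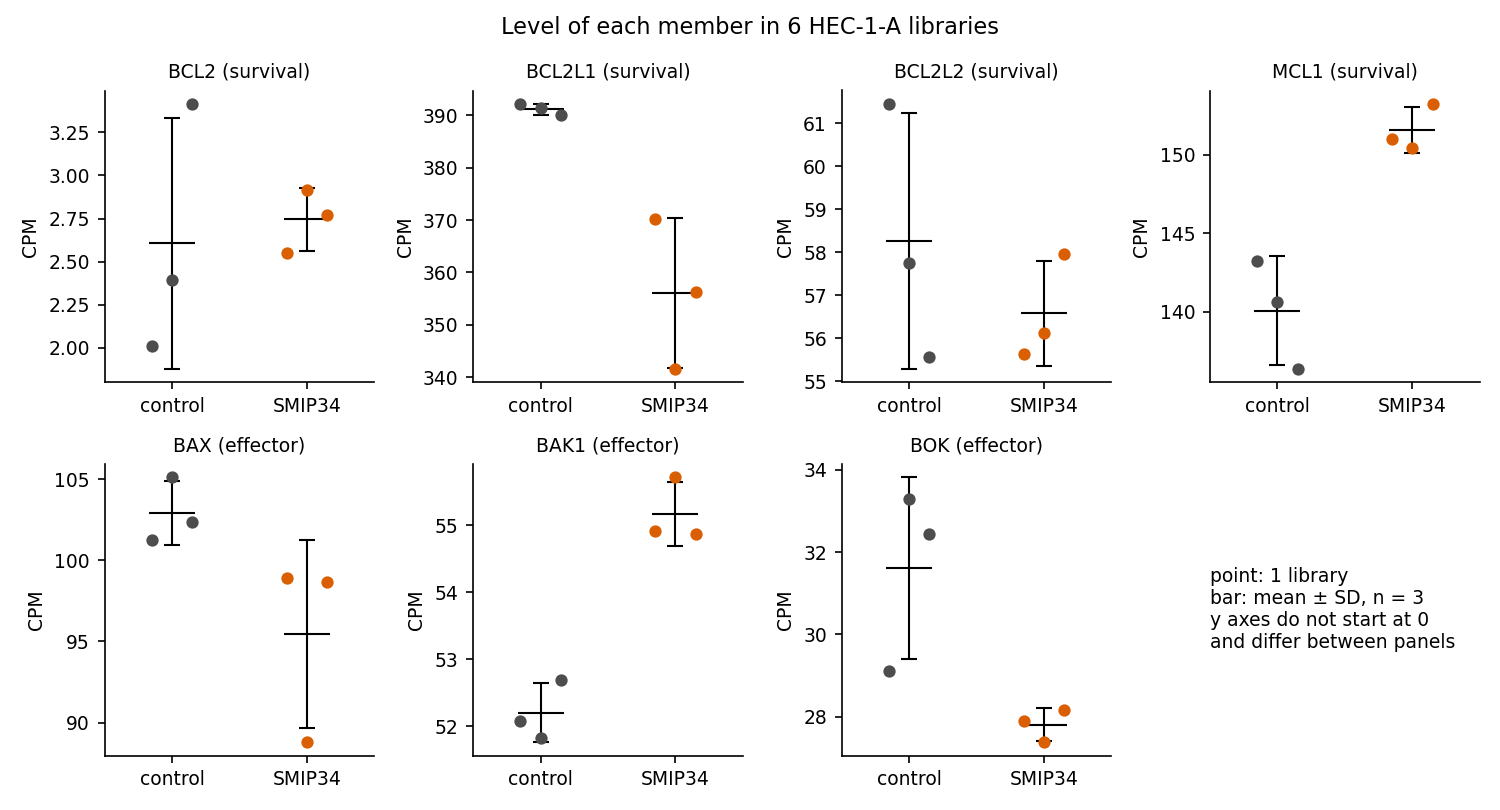
CPM of each gene in the 6 libraries, with points for replicates 1, 2 and 3 from left to right and the mean ± SD (n = 3) as bars. The axes differ between panels and do not start at 0. BCL2L1, BAX and BOK lie lower and MCL1 and BAK1 higher in all SMIP34 libraries, by 12.2% at most, while BCL2 and BCL2L2 overlap.

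**Figure D3:**
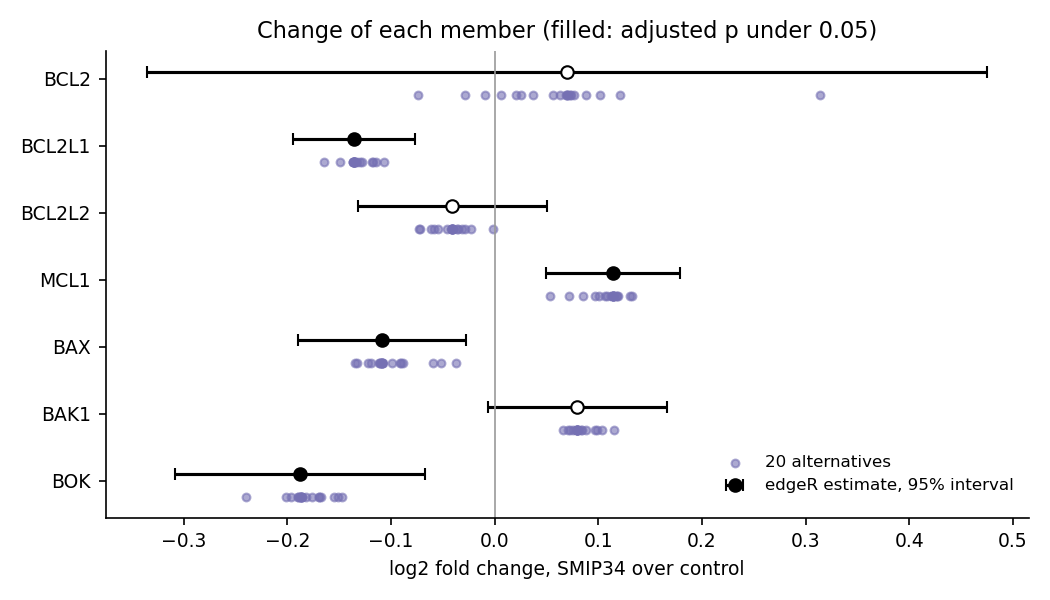
Log2 fold change of SMIP34 over control with its 95% interval from edgeR (filled where the adjusted p was under 0.05) and, below each, the estimates of the 20 alternatives. The interval of BCL2 runs from -0.33 to 0.47, while that of BCL2L1 ends at -0.076.

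The sequences around the start sites of the genes that were lower with SMIP34 are given to show what these promoters hold. RefSeq windows of 300 bases, from 250 before to 50 after a start site, were matched by symbol for 5 of the 7 genes (6 windows, of which 2 belong to BCL2L1), and each was placed on GRCh37 by a single exact match. Capitals mark the GC box GGGCGG, a site of SP1-type factors, and the E-box CACGTG, a site of factors such as MYC and USF, on either strand. The window of BCL2L1 starts transcription 15 bases before the gene start in the count tables (chr20:30310622-30310921, minus strand). That of BAX is chr19:49457882-49458181 and that of BOK chr2:242497910-242498209, both on the plus strand.
BCL2L1: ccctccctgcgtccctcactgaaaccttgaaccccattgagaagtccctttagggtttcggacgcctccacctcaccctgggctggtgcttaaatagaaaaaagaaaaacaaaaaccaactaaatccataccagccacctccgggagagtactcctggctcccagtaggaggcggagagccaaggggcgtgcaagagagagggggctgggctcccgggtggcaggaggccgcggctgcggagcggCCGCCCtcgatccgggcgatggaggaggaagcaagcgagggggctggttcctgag
BAX: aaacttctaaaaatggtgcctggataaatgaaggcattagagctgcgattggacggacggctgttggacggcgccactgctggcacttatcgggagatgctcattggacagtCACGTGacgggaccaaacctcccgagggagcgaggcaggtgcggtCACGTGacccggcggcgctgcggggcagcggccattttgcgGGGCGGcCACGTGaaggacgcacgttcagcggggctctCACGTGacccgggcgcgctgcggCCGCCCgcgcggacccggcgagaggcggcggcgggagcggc
BOK: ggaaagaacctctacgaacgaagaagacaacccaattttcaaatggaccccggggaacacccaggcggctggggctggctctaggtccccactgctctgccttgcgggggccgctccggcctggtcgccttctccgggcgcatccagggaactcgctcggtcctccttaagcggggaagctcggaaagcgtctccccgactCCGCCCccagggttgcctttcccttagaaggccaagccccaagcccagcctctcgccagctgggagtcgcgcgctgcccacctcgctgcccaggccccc

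The BAX window holds 4 copies of CACGTG, at -138, -93, -45 and -14 from the start site, and 2 GC boxes. An E-box occurs in 7.26% of the 35116 windows of this length in the RefSeq table, and 4 or more copies occur in 5 of them (0.0142%). The limit of 4 was taken from the BAX window, which is itself among these 5. The windows of BOK, BAK1, BCL2 and BCL2L1 have no CACGTG. A GC box is present in 4 of the 6 windows, those of BAX, BAK1 and BOK and the printed one of BCL2L1, against 45.0% of all windows. The AP-1 site TGANTCA (7.71% of all windows) and the cAMP response element TGACGTCA (1.85%) were searched on both strands and are in none of the 6 windows. These are matches of letters, and binding was not measured.

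The balance between effectors and survival genes was compared within each library, where scaling cancels out. The summed CPM of BAX, BAK1 and BOK was 0.305, 0.321 and 0.320 times that of the 4 survival genes in control replicates 1, 2 and 3. In SMIP34 replicates it was 0.314, 0.312 and 0.319. The treated libraries lay within the range of the controls. On the log2 scale the means were -1.67 ± 0.043 in control and -1.67 ± 0.016 in treated cells (SD, n = 3 each), a difference of -0.0028. The difference was 0.057 with MCL1 left out of the sum and 0.049 with BAX left out. As a mean of log2 CPM, which gives each gene the same weight, it was -0.082. No test was run on these sums, which are scores over genes that were chosen with results known.

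Ratios of single genes were also computed. MCL1 stood at 0.229, 0.225 and 0.219 times BCL2L1 per kb in control libraries and at 0.256, 0.276 and 0.269 times in SMIP34 libraries. The difference in log2 ratio was 0.25, and the groups did not overlap. BAX stood at 2.30, 2.43 and 2.44 times MCL1 in control and 2.13, 1.92 and 2.09 times in treated libraries, a difference of -0.22 on the log2 scale. BAK1 stood at 0.155, 0.155 and 0.158 times BCL2L1 in control and 0.173, 0.190 and 0.180 times in SMIP34 libraries (log2 difference 0.22). The ratio of BAX to BCL2L1 (log2 difference 0.027) and that of BAK1 to MCL1 overlapped between the groups (-0.034). Of the 6 single-gene ratios computed, 4 had groups that did not overlap, the fourth being BAK1 over BAX (log2 difference 0.19). Each of these 4 sets a gene higher in every SMIP34 library against a gene lower in every SMIP34 library. Their separation therefore follows from the levels of the single genes and adds no result to them. These ratios were described and not tested.

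**Figure D4:**
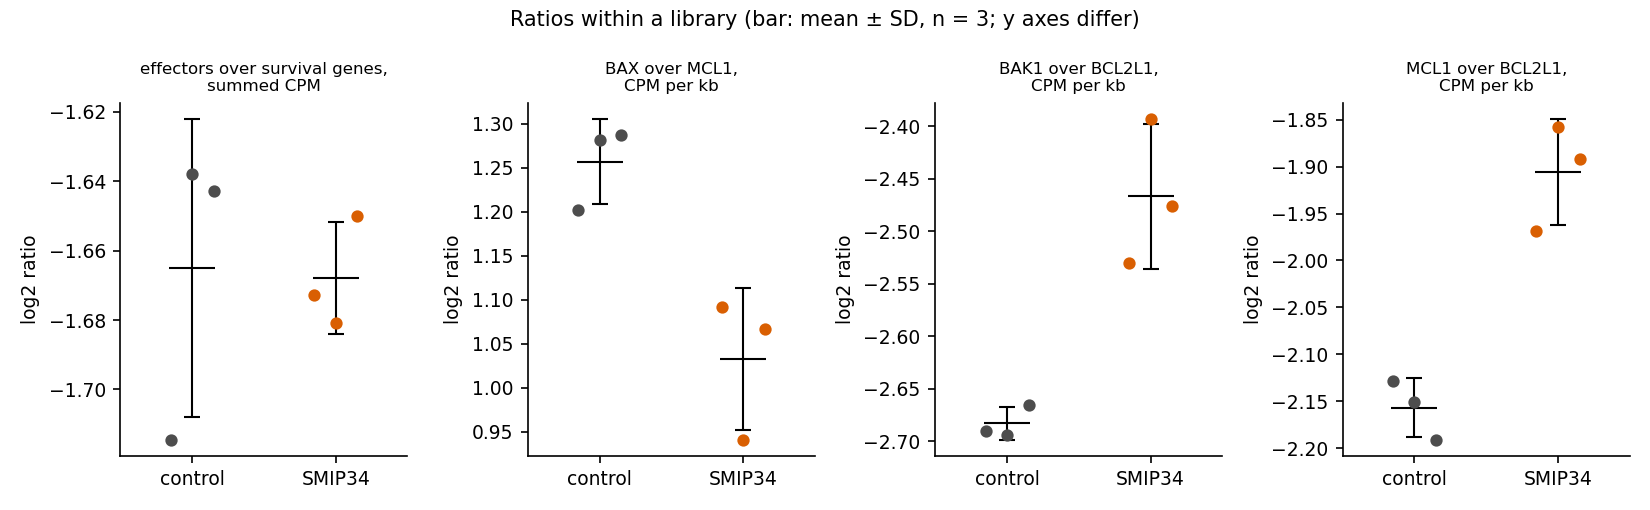
Log2 ratios within each library, with points for replicates 1, 2 and 3 from left to right and bars for the mean ± SD (n = 3). Axes differ between panels. The summed ratio of effectors to survival genes overlaps between the groups, while the 3 single-gene ratios are separated by 0.22 to 0.25 between the group means. Each of the 3 sets a gene higher in all SMIP34 libraries against a gene lower in all of them.

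Among the BH3-only genes, which set the load on the survival proteins, 7 of 8 were tested. Of these, 3 were higher and 1 lower, against 17.4% and 17.2% of all genes tested. BCL2L11 (BIM) had a log2 fold change of 0.31 (adjusted p = 8.18e-05), and BBC3 (PUMA), a p53 target, of 0.19 (adjusted p = 0.0208). BMF had 10, 10 and 5 counts in control and 19, 24 and 33 in SMIP34 libraries, a log2 fold change of 1.52 (adjusted p = 0.00231), and was the only gene of the pathway lists past the fold limit. BAD, which growth factor signalling keeps inactive, was lower (-0.13, adjusted p = 0.0104). PMAIP1 (NOXA), which binds MCL1, was at 0.10 (adjusted p = 0.109), BIK at 0.13 (adjusted p = 0.191) and BID at -0.076 (adjusted p = 0.205). HRK was below the count filter, at means of 0.283 CPM (control) and 0.367 CPM (SMIP34). Leaving out control replicate 1 (0.13, adjusted p = 0.144), SMIP34 replicate 2 or SMIP34 replicate 3 ended the call of BBC3, and control replicate 2 or SMIP34 replicate 3 that of BAD (-0.10, adjusted p = 0.0825, without the former). With DESeq2's normal prior the log2 fold change of BMF was 0.15, and under a filter of 1 CPM it was not tested. DESeq2, the method of the study, did not call BBC3 (adjusted p = 0.0609). With length offsets 5 of the 7 were higher and none lower, against 13.6% and 17.4% of all genes tested. BIK (0.21, adjusted p = 0.0395) and PMAIP1 (0.14, adjusted p = 0.0280) then passed and BAD (-0.072, adjusted p = 0.132) did not. Without control replicate 3, BID passed (-0.12, adjusted p = 0.0336). The median of the 7 was 0.13, against -0.0022 over all genes tested.

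Of 6 other BCL2 homologs, BCL2L12 (0.063, adjusted p = 0.232) and BCL2L13 (-0.035, adjusted p = 0.472) were tested and did not pass. BCL2L12 passed with length offsets (0.10, adjusted p = 0.0357). BCL2A1, BCL2L10, BCL2L14 and BCL2L15 had group means of 0.169 CPM at most, and the NF-kB-induced survival gene BCL2A1 had no count in any control library, where 0 allows a level of up to 0.138 to 0.155 CPM (3 counts per library, counting error only). The median of the 2 homologs tested was 0.014.

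Downstream of the effectors, 2 of 6 genes were higher and none was lower, against 17.4% and 17.2% of all genes tested. The median of the 6 was 0.068. CYCS, the gene of cytochrome c, was at 318 ± 5.52 CPM in control libraries and rose to 346 ± 1.62 CPM (SD, n = 3 in both groups; log2 fold change 0.12, edgeR adjusted p = 0.000889). APAF1, which assembles the apoptosome with cytochrome c, had a log2 fold change of 0.19 (adjusted p = 0.00296). CASP9 (0.097), XIAP (0.039), DIABLO (0.022) and HTRA2 (-0.0088) did not pass, with adjusted p-values between 0.442 (CASP9) and 0.923 (HTRA2). With length offsets, CYCS (adjusted p = 0.0792) and APAF1 (adjusted p = 0.0719) lost their calls. None of the 6 was then called, against 13.6% higher and 17.4% lower of all genes tested. With length and GC content offsets together, none was higher and XIAP was lower (-0.10, adjusted p = 0.0262). Of all genes tested, 12.2% were higher and 18.1% lower in that setting.

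MCL1 is degraded within hours, and genes that control its turnover were listed apart. Against 17.4% higher and 17.2% lower over all genes tested, 4 of the 7 tested here were higher, none was lower and the median was 0.17. They were the ubiquitin ligase HUWE1 (MULE; 0.19, adjusted p = 9.75e-06), the mitotic ligase subunit CDC20 (0.21, adjusted p = 2.67e-06), the kinase GSK3B (0.13, adjusted p = 0.0099) and the deubiquitinase USP9X (0.23, adjusted p = 5.28e-06). HUWE1 and USP9X act on MCL1 in opposite directions. FBXW7 (0.17, adjusted p = 0.0847), BTRC (0.10, adjusted p = 0.222) and USP13 (-0.099, adjusted p = 0.103) did not pass, and TRIM17 was below the filter. HUWE1 and USP9X have long exons (14734 and 12401 bases), and the counts of this list depended on the offsets. With length offsets 2 genes were higher and 1 was lower, against 13.6% and 17.4% of all genes tested, and the median was 0.045. HUWE1 (0.025, adjusted p = 0.511) and GSK3B (0.045, adjusted p = 0.364) were then not called, USP9X was at 0.081 (adjusted p = 0.0350), and USP13 was lower (-0.20, adjusted p = 0.00152). With length and GC content offsets together, USP9X was also lost (0.048, adjusted p = 0.209) and GSK3B was at 0.022 (adjusted p = 0.689). CDC20 alone was then higher and USP13 alone lower, against 12.2% and 18.1% of all genes tested. With GC content offsets USP13 was lower too (-0.14, adjusted p = 0.0244), and GSK3B was not called (0.090, adjusted p = 0.0657). GSK3B also lost its call without control replicate 2 (0.095, adjusted p = 0.0866) and without SMIP34 replicate 1 (0.11, adjusted p = 0.0642).

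Of 9 genes listed as partners of BAX and BAK1, 2 were higher and 1 lower, against 17.4% and 17.2% of all genes tested. The median of the 9 was -0.0036. The mitochondrial fusion gene MFN1 had the largest increase (0.12, adjusted p = 0.0204), DNM1L, the gene of a fission GTPase, was also higher (0.12, adjusted p = 0.0176), and TMBIM6, named Bax inhibitor 1, had the largest decrease (-0.066, adjusted p = 0.0471). Of the 20 alternatives, the call held in 10 for MFN1, 13 for DNM1L and 11 for TMBIM6. TMBIM6 was at -0.043 without control replicate 1 and DNM1L at 0.081 without control replicate 2, and 4 of the 6 libraries for MFN1, 3 for DNM1L and 5 for TMBIM6 each ended the call when left out. With length offsets none of the 9 was higher and 1 was lower, against 13.6% and 17.4% of all genes tested. BOK binds inositol trisphosphate receptors and is cleared by a pathway that needs VCP. Of 4 genes linked to it, 3 were higher and none lower, against 17.4% and 17.2% of all genes tested. VCP had a log2 fold change of 0.17 (adjusted p = 4.06e-05), ITPR2 of 0.33 (adjusted p = 0.000789) and ITPR3 of 0.081 (adjusted p = 0.0267), and the median of the 4 was 0.12. ITPR1 was at -0.020 (adjusted p = 0.912). VCP was called in all 20 alternatives. With length offsets, ITPR2 lost its call (0.18, adjusted p = 0.0609) and ITPR3 changed sign (-0.034). This left 1 of the 4 higher and none lower, against 13.6% and 17.4% of all genes tested. The median of the 4 was then 0.048. Leaving out any library but control replicate 3 ended the call of ITPR3, with 0.049 without control replicate 1. Over all these lists, 14 of the 35 genes tested (40%) were called higher and 2 (5.71%) lower, against 17.4% and 17.2% of all genes. With offsets for length and GC content together these were 7 (20%) and 3 (8.57%), against 12.2% and 18.1%. Since the lists were chosen with results known, no test was made of this split.

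**Figure D5:**
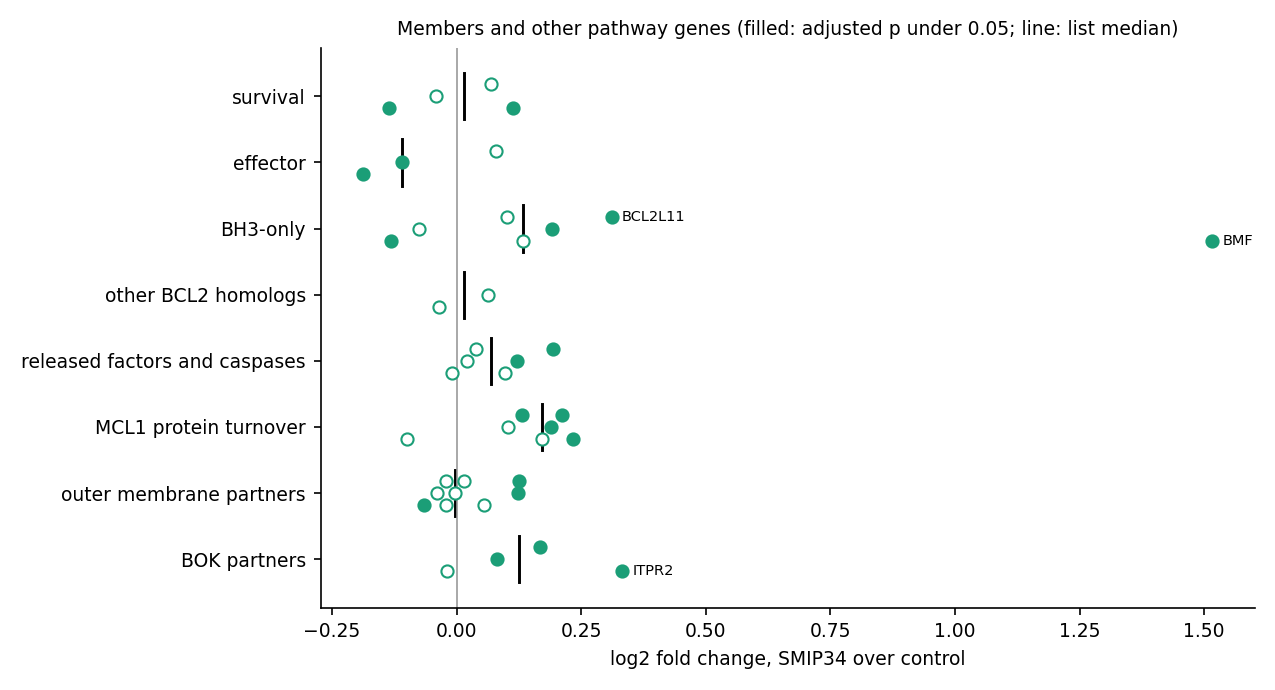
Log2 fold change of SMIP34 over control for the 7 genes and the other pathway lists, with 1 point per tested gene (filled where the adjusted p was under 0.05) and a line at each list's median. The values lie between -0.19 (BOK) and 0.33 (ITPR2) but for BMF at 1.52. In this main analysis the lowest list median is that of the 3 effectors, which is the value of BAX (-0.11). With length and GC content offsets together BAX was at -0.038.

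All 6 epithelial marker genes, among them KRT8, KRT18 and EPCAM, were expressed, and their summed level was 2918 to 3022 CPM in control and 2769 to 2784 CPM in SMIP34 libraries. Of these, KRT8, KRT19 and MUC1 passed the test and were lower and none was higher, against 17.2% lower and 17.4% higher of all genes tested. KRT18, EPCAM and CDH1 did not pass, and the estimate of CDH1 was in the other direction (0.037, edgeR adjusted p = 0.365). The summed level of 5 stromal markers was 3.63 to 4.47 CPM in control and 4.69 to 5.18 CPM in SMIP34 libraries. Of these, 2 had enough counts to be tested. COL1A1, which made up most of the sum, was higher (log2 fold change 0.50, adjusted p = 0.0151). PDGFRB had an estimate in the other direction and did not pass (-0.54, adjusted p = 0.307). Over all libraries, the summed level of 4 immune markers was between 0.818 and 2.23 CPM and that of 3 endothelial markers between 0.137 and 0.721 CPM. CD3E had no count in any library, and PTPRC none in any control library. The part of these markers in the changes of the 7 genes was not tested. PELP1 mRNA itself had a log2 fold change of 0.16 (adjusted p = 0.000746). This is mRNA only: by Western blotting, the study reported less PELP1 protein in endometrial cancer cells given SMIP34.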

How the data were processed

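RNA was sequenced from 3 control and 3 SMIP34-treated libraries, which were grouped by their titles. The values are estimated counts that the authors deposited without normalization: per the file headers, featureCounts summed strand-specific reads with a mapping quality of at least 2 over exons of the UCSC hg19 annotation and divided multi-mapped reads into fractions. The submitters' processing notes name HISAT2, and the methods of the study name tophat2 and HTSeq. The labels name library kits of different makers.

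Counts were rounded, filtered with filterByExpr, scaled by TMM and tested with the quasi-likelihood method (legacy = FALSE) of edgeR 4.0.16 in R 4.3.3. A gene was called at an adjusted p-value under 0.05, and the fold limit was an absolute log2 fold change of 0.5. Standard errors were derived from the F statistic. CPM per kb used the exon length in the files. The procedure was tested on simulated data. The study used DESeq2, which was run here (1.42.0) as an alternative, beside limma voom (3.58.1), other scalings and filters, the legacy method, a replicate block, offsets from loess fits (span 0.3) on length, a threshold of 0.01 and leaving out each library. Offsets on GC content were added after the data were seen. Figures were drawn with matplotlib 3.10.9.

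The genes, the pathway lists and the tests were chosen with earlier results of these data known. Of the pathway lists, 3 genes are not reported here and were left out of the counts and medians after the data were seen. Named in the text are the 7 genes, every gene of a list of 8 or fewer, the extremes of the longer list, genes past the fold limit, genes left out by the filter, PELP1, BCL2L2-PABPN1 and the 3 genes most like the one with the largest change. PABPN1, DNM1L and the markers named were chosen after their values were seen. Counting error is 13.3% for BCL2 and between 1.12 and 3.99% for the others.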

Additional observations from a re-analysis of the deposited data

How the results depend on the processing

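Of the 7 genes, 4 were called in the main analysis, against 34.6% of all genes tested, and between 2 and 4 in the alternatives. With length offsets 2 were called, none of them higher (0 against 1), where 13.6% of all genes were higher and 17.4% lower. With an adjusted p under 0.01, 2 were called, 1 of them lower, where 11.9% of all genes were higher and 11.3% lower. Leaving out each library gave 2 to 4 genes, 1 to 3 lower, and 10 to 16 of the other pathway genes, against 16. Of all genes, 13.9 to 17.4% were then called higher and 13.3 to 16.85% lower. With an adjusted p under 0.01, and with length and GC content offsets, 10 of these pathway genes were called. Without control replicate 2 or SMIP34 replicate 2 the genes called were BCL2L1 and MCL1, and without control replicate 2 or SMIP34 replicate 3 there were 10 pathway genes. BAX was not called with DESeq2 (adjusted p = 0.0764), with library size only (0.0758) or with GC content offsets (0.0928), and MCL1 was lost with length and GC content offsets (0.200). The cause was not tested. None of the 7 genes was past the fold limit in any analysis. The log2 difference in the ratio of summed effectors to survival genes was -0.0028, between -0.028 and 0.011 with a library left out, -0.082 as a mean of log2 CPM, 0.057 without MCL1 and 0.049 without BAX. ITPR3 changed sign with length offsets (-0.034) and with length and GC content offsets (-0.023). XIAP changed sign with the latter and was then called lower (-0.10, edgeR adjusted p = 0.0262). Of all genes, 444 were past the fold limit and 64 with the normal prior of DESeq2. The split of higher and lower calls was 2339 to 2306, against 1635 to 2422 with length and GC content offsets, 2087 to 2585 with upper quartile scaling and 2757 to 1949 with library size only. Deviations from the group means correlated by -0.028, 0.033 and -0.011 for replicates 1, 2 and 3, and by -0.025 to 0.036 between unequal numbers. These values show no pairing by number, but counting error in the deviations could hide it. With a replicate block, 4 of the 7 genes and 4432 of all genes were called. Depth limits BCL2 most, at 39 to 71 counts per library.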
